A study of Mus musculus with 12 samples.

Results

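The genes described here are 10 genes by which astrocytes and their reactive state are commonly recognized in RNA from mouse brain. They were picked by symbol, and all 10 were among the 23183 gene symbols listed. The reactive genes are *Gfap*, *Vim*, *Serpina3n* and *Osmr* (4 genes), and the genes of astrocyte identity are *Aqp4*, *Slc1a2*, *Slc1a3*, *Gja1*, *Aldh1l1* and *S100b* (6 genes). RNA was sequenced from cortex and hippocampus of male C57BL/6 mice with no transgene or deletion named, which were bought at 7 weeks of age, acclimatized for 1 week and assigned to groups at random. The IR group received a single dose of 10 Gy of X-rays to the whole brain, the Con group was sham irradiated (0 Gy), and both were sampled 3 months later. There were 12 libraries, with 3 of each group from each tissue, and they are numbered 1 to 3 within each group. Whether they came from separate mice, and whether cortex and hippocampus came from the same mice, is not spelled out for each library, so the p values measure the spread between these libraries.

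Astrocytes clear glutamate from synapses, take up potassium and water, couple to each other through gap junctions and line blood vessels with their endfeet. After injury, inflammation or irradiation they can become reactive. In this state they build up the intermediate filaments made of *Gfap* and *Vim* products, secrete protease inhibitors such as the one encoded by *Serpina3n*, and respond to cytokines of the interleukin-6 family, which signal through gp130, Janus kinases and STAT3. Hippocampal astrocytes are known to carry more GFAP than those of the cortical grey matter.

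Levels are given in FPKM (fragments counted per kilobase of a transcript and adjusted for how many were mapped), a scale corrected for transcript length. The sum of all values was 359773 to 393447 FPKM in a library, and the median gene of a library was at 0.995 to 1.02 times its geometric mean over the 12 libraries. Read depth is unknown in absolute terms. The steps between low values put the other libraries of a tissue at 1.01 to 1.05 times the depth of Con 1 in the cortex and at 1.02 to 1.13 times in the hippocampus. In the hippocampus Con 2 and 3 were at 1.02 and 1.06, and IR 1 to 3 at 1.13, 1.09 and 1.08. Every hippocampal IR library was thus put deeper than every Con library, from peaks of 97 to 282 genes among 2280 to 2454 low genes. Depth and irradiation cannot be told apart there, and the part of depth in the values below was not tested. The tissue labels were checked with marker genes. The summed level of 5 cortical neuron markers was 175 to 235 FPKM in the cortex and 37.1 to 40.7 FPKM in the hippocampus. That of 5 hippocampal markers was 12.6 to 18.7 FPKM in the cortex and 102 to 128 FPKM in the hippocampus. A few libraries stood apart in RNA from tissue that lines the ventricles. The summed level of 6 choroid plexus genes was 1062 FPKM in hippocampus Con 2, 1651 FPKM in hippocampus IR 1 and 440 FPKM in cortex IR 2, against 3.71 to 65.8 FPKM in the other libraries. The 6 ependymal markers summed to 15.7 FPKM in cortex Con 3 and to 6.39 to 11.8 FPKM in the other cortex libraries. Results are therefore also given without these libraries where it matters.

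Every one of the 10 genes was detected in every library. In whole tissue this does not show which cells made the RNA. *Slc1a2* (GLT-1), the main glutamate transporter of the forebrain, had the highest level in all 4 groups, with means of 286 to 298 FPKM. In the Con cortex the order of mean levels was *Slc1a2* (291 FPKM), *Slc1a3* (115 FPKM), *S100b* (56.3 FPKM), *Gfap* (54.4 FPKM), *Gja1* (51.6 FPKM), *Aldh1l1* (22.0 FPKM), *Aqp4* (20.1 FPKM), *Vim* (17.2 FPKM), *Serpina3n* (3.40 FPKM) and *Osmr* (0.756 FPKM). The libraries of *S100b*, *Gfap* and *Gja1* overlapped between neighbours in this order, as did those of *Aldh1l1*, *Aqp4* and *Vim*. In the Con hippocampus *Gfap* (161 FPKM) ranked second, with libraries that overlapped those of *Slc1a3* (142 FPKM), and *Serpina3n* (25.4 FPKM) stood between *Aqp4* (32.1 FPKM) and *Vim* (22.7 FPKM) and overlapped both. *Osmr*, the receptor subunit for oncostatin M, was the lowest of the 10 genes in every group.

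**Figure D1:**
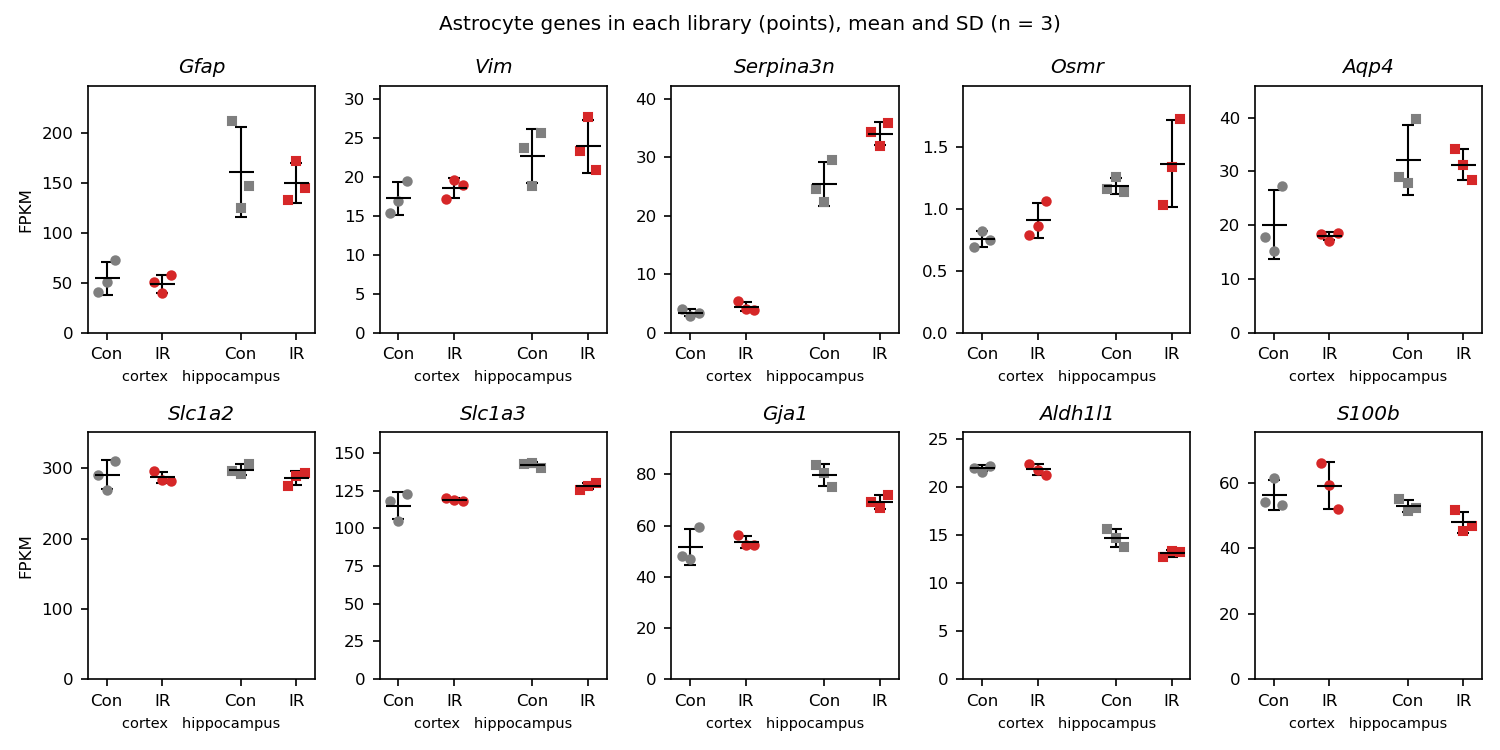
FPKM of the 10 genes in each library, with Con in grey and IR in red, circles for the cortex and squares for the hippocampus, and bars for the mean and SD of 3 libraries. *Serpina3n*, *Slc1a3*, *Gja1* and *Aldh1l1* are the 4 genes whose Con and IR libraries do not overlap in the hippocampus, and no gene separates the groups in the cortex.

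The promoters of the leading members are printed as a reference for the genes discussed below. The sequences are from RefSeq on GRCm38.p6 and were given for 9 of the 10 genes (all except *Aqp4*). The 300 bases around each start site (250 before, 50 after) were searched for TTCNNNGAA, the palindrome that STAT proteins bind, and for TGANTCA, the palindrome of AP-1. Both motifs read the same on either strand and none of the matches overlapped. The first was found in *Gfap* and *Slc1a3*, once each, and the second in *Gja1* and *Osmr*, once each. Of all 32851 promoters of this length, 8.30% held the first and 7.81% the second. No match was found in the windows of *Serpina3n*, *Vim*, *Slc1a2*, *Aldh1l1* or *S100b*. A single start site per gene was searched, and some lie inside the annotated gene. For example, those of *Slc1a2* (chr2:102706438) and *Aldh1l1* (chr6:90550793) lie downstream of the annotated gene starts at 102658659 and 90486427. Other start sites of these genes were not searched. The 170 bases from 150 before to 20 after the start are shown 5′ to 3′ for *Gfap* and *Serpina3n*, the reactive genes with the highest level and with the largest difference, and for *Slc1a3* and *Gja1*, both lower in the IR hippocampus. Capitals mark a match.
Gfap (minus strand, chr11:102897181-102897350): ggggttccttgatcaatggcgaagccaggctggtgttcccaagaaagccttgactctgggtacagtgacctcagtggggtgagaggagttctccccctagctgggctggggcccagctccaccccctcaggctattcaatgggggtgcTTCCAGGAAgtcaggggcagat
Serpina3n (plus strand, chr12:104406558-104406727): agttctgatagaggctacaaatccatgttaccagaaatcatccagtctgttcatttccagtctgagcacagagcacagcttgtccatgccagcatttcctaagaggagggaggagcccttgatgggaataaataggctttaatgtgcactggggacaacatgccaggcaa
Slc1a3 (minus strand, chr15:8710788-8710957): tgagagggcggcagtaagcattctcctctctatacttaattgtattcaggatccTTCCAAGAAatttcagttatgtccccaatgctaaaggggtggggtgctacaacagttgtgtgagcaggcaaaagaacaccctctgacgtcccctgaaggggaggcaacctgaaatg
Gja1 (plus strand, chr10:56377150-56377319): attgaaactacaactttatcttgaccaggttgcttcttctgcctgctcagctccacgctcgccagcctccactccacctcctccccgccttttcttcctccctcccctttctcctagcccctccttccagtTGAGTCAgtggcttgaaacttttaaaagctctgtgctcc
The match in *Gfap* began 2 bases before the start site, the one in *Slc1a3* 96 bases before it and the one in *Gja1* 19 bases before it. A match is a description of the letters and not evidence of binding.

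The first question was whether the reactive genes differed between IR and Con 3 months after irradiation. Their levels were compared in each tissue by a limma fit of log2(FPKM + 1) over all genes that reached 0.5 FPKM in 3 or more of the 6 libraries, and a gene was called at an adjusted p under 0.05. None of the 10 genes was called in either tissue, where 0.725% of 14065 tested genes were called in the cortex and 0.0285% of 14043 in the hippocampus. At an unadjusted p under 0.05, which 14.1% and 13.9% of the tested genes met, 1 of the 10 genes passed in the cortex (*Serpina3n*) and 4 in the hippocampus (*Serpina3n*, *Slc1a3*, *Gja1* and *Aldh1l1*). Con and IR libraries did not overlap for 0 of 10 genes in the cortex, against 20.3% of the tested genes, and for 4 of 10 in the hippocampus, against 19.8%. No member reached a 1.5-fold difference with an unadjusted p under 0.05, a rule that 0.483% of tested genes met in the cortex and 0.527% in the hippocampus. In bulk tissue, fewer astrocytes and less RNA per astrocyte cannot be told apart.

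*Gfap* (GRCm38 chr11:102887336-102900912), which encodes the filament protein that defines reactive astrocytes in histology, showed no separation of the groups. In the cortex its levels were 40.2, 50.5 and 72.7 FPKM in Con 1 to 3 and 50.6, 39.1 and 57.1 FPKM in IR 1 to 3. In the hippocampus they were 211.5, 124.5 and 146.4 FPKM in Con and 132.8, 171.3 and 144.3 FPKM in IR. The groups overlapped in both tissues, and the Con group held the highest library in each. The log2 fold change of IR over Con was -0.13 in the cortex (95% interval -0.74 to 0.49, adjusted p = 0.871) and -0.08 in the hippocampus (-0.50 to 0.35, adjusted p = 0.874), so that a difference of either sign of about this width would not have been detected. The sign rested on single libraries. Without cortex Con 3, the cortex library with the highest ependymal sum, the value in the cortex was 0.10, and without IR 2 it was 0.02. In the hippocampus it was 0.14 without Con 1 and 0.004 without IR 1.

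*Vim* encodes vimentin, the partner filament of GFAP, which endothelial cells, fibroblasts and ependymal cells also make. Its levels in the cortex were 15.3, 16.8 and 19.5 FPKM in Con and 17.1, 19.5 and 18.9 FPKM in IR, and in the hippocampus 23.6, 18.8 and 25.6 FPKM in Con and 23.2, 27.6 and 20.9 FPKM in IR. Both pairs of groups overlapped. The log2 fold change was 0.11 in the cortex (adjusted p = 0.631) and 0.07 in the hippocampus (adjusted p = 0.815). In the cortex it was 0.030 without Con 1 and 0.20 without Con 3. Without the hippocampus libraries highest in choroid plexus genes (Con 2 and IR 1) it was -0.032.

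*Serpina3n* (chr12:104406729-104414329) encodes a secreted inhibitor of serine proteases and is among the genes most strongly raised in reactive astrocytes in general. It was the reactive gene with the largest difference between IR and Con in both tissues. In the hippocampus its level was 24.5, 22.3 and 29.5 FPKM in Con and 34.4, 31.9 and 35.8 FPKM in IR. All 3 IR libraries lay above all 3 Con libraries. The means of 25.4 ± 3.70 FPKM for Con and 34.0 ± 1.98 FPKM for IR (SD, n = 3) had a ratio of 1.34, with a log2 fold change of 0.41 ± 0.10 (SE) and an unadjusted p of 0.00369 in limma. This p ranked 205 among 14043 tested genes, and the adjusted p was 0.247. In the cortex the level was 3.98, 2.82 and 3.38 FPKM in Con and 5.34, 4.08 and 3.83 FPKM in IR. The Con 1 library exceeded IR 3, so the groups overlapped, and the log2 fold change was 0.30 ± 0.13 (SE, adjusted p = 0.331). The direction held in every fit that left out 1 library, with 0.33 to 0.52 in the hippocampus and 0.18 to 0.39 in the cortex. Without hippocampus Con 3 the adjusted p in the hippocampus was 0.0218, in a fit that called 861 genes in all where the fit of all 6 libraries called 4. Without Con 2 and IR 1 it was 0.858 at a log2 fold change of 0.32.

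*Osmr* was measured close to the lower limit for testing. Its levels were 0.692, 0.824 and 0.750 FPKM in the Con cortex and 0.792, 0.864 and 1.07 FPKM in the IR cortex. In the hippocampus they were 1.16, 1.26 and 1.14 FPKM in Con and 1.03, 1.34 and 1.73 FPKM in IR. IR 3 was the highest library in both tissues, while the other IR libraries lay within or close to the Con range. The log2 fold change was 0.12 in the cortex (adjusted p = 0.639) and 0.10 in the hippocampus (adjusted p = 0.710). Without hippocampus IR 3 the hippocampal value was -0.0034.

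**Figure D2:**
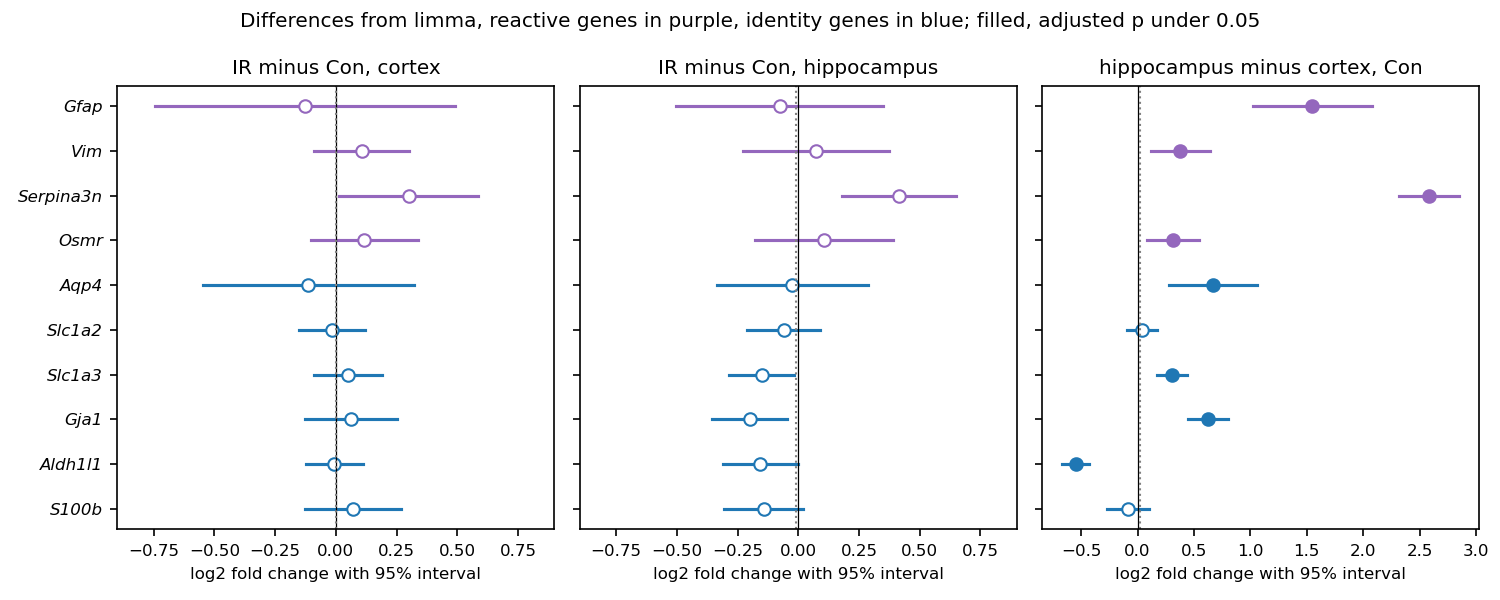
Log2 fold change (points) with its 95% interval (lines) for the 10 genes, from limma fits of log2(FPKM + 1), for IR minus Con in each tissue and for hippocampus minus cortex in Con. Filled points have an adjusted p under 0.05, which holds for none of the genes between IR and Con and for 8 of 10 between the tissues, and the dotted line is the median of all tested genes.

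The second question was whether the genes of astrocyte identity differed. In the hippocampus the log2 fold change was below 0 for 6 of 6 of these genes, with a median of -0.15 where all tested genes had a median of -0.01. In the cortex 3 were above and 3 below 0, with a median of 0.02 where all tested genes had 0.002. The hippocampal count was 6 of 6 under rescaling by median ratios, with another pseudocount and with other filters, and 4 of 6 after quantile normalization within the tissue (median -0.09), under which *Aqp4* (0.0058) and *Slc1a2* (0.026) lay just above 0. It was 5 of 6 without Con 3 and without IR 3, and 6 of 6 without any 1 of the other libraries. None of these genes was called in either tissue. The mean log2(FPKM + 1) of the 6 genes was 6.09, 6.04 and 6.10 in the Con hippocampus and 5.98, 5.94 and 5.95 in the IR hippocampus, without overlap, and 5.88, 5.81 and 6.05 in the Con cortex and 5.98, 5.90 and 5.88 in the IR cortex, with overlap.

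*Slc1a3* (chr15:8634124-8710764) encodes GLAST, the glutamate transporter that also marks radial glia. Its hippocampal level was 143.0, 143.7 and 140.2 FPKM in Con and 125.8, 128.2 and 130.1 FPKM in IR. Every Con library lay above every IR library, with means of 142 ± 1.86 FPKM and 128 ± 2.15 FPKM (SD, n = 3). The log2 fold change was -0.15 ± 0.06 (SE), with an unadjusted p of 0.0328 in limma and an adjusted p of 0.336. In the cortex the levels were 118.2, 104.9 and 122.6 FPKM in Con and 120, 119 and 118 FPKM in IR, with overlap (log2 fold change 0.05, adjusted p = 0.771). The related transporter *Slc1a2* had 297, 292 and 306 FPKM in the Con hippocampus and 275, 290 and 294 FPKM in the IR hippocampus. These overlapped, at a log2 fold change of -0.06 (-0.21 to 0.09, adjusted p = 0.681). In the cortex *Slc1a2* had 291, 270 and 311 FPKM in Con and 296, 283 and 283 FPKM in IR (log2 fold change -0.02, adjusted p = 0.935).

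*Gja1* (chr10:56377330-56402513) encodes connexin 43, the main gap junction protein of astrocytes. In the hippocampus it had 83.6, 80.6 and 75.1 FPKM in Con and 69.1, 66.8 and 71.9 FPKM in IR. The lowest Con library was above the highest IR library. The ratio of means was 0.868, the lowest among the 10 genes in that tissue, with a log2 fold change of -0.20 ± 0.07 (SE), with an unadjusted p of 0.0172 in limma and an adjusted p of 0.299. In the cortex the levels of 48.3, 47.0 and 59.6 FPKM in Con and of 56.3, 52.4 and 52.3 FPKM in IR overlapped (log2 fold change 0.06, adjusted p = 0.790), and the value was 0.0013 without Con 2 and 0.17 without Con 3. The water channel gene *Aqp4*, whose product sits in the endfeet and is also found in ependymal cells, had 28.9, 27.7 and 39.7 FPKM in the Con hippocampus and 34.2, 31.2 and 28.4 FPKM in the IR hippocampus. In the cortex *Aqp4* had 17.8, 15.2 and 27.3 FPKM in Con and 18.3, 17.1 and 18.5 FPKM in IR. Con 3 was the highest library in both tissues and also the Con library with the highest ependymal sum in both. The log2 fold change of *Aqp4* was -0.11 in the cortex, where it was 0.12 without Con 3, and -0.02 in the hippocampus, where it was 0.13 without Con 3.

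*Aldh1l1* encodes a folate enzyme used as a marker of nearly all astrocytes. Its hippocampal level was 15.6, 14.7 and 13.8 FPKM in Con and 12.7, 13.3 and 13.3 FPKM in IR. The groups did not overlap, but the gap between Con 3 and IR 2 was small. The log2 fold change was -0.16 ± 0.07 (SE), with an unadjusted p of 0.0485 in limma and an adjusted p of 0.357. In the cortex *Aldh1l1* was nearly the same in all libraries, at 22.0, 21.6 and 22.2 FPKM in Con and 22.5, 21.9 and 21.3 FPKM in IR (log2 fold change -0.01, 95% interval -0.12 to 0.11). *S100b*, which encodes a calcium-binding protein of astrocytes that oligodendrocytes express too, had 55.2, 51.5 and 52.2 FPKM in the Con hippocampus and 51.7, 45.3 and 46.9 FPKM in the IR hippocampus. IR 1 exceeded Con 2, and the groups overlapped (log2 fold change -0.14, adjusted p = 0.395). In the cortex *S100b* had 54.3, 61.5 and 53.2 FPKM in Con and 66.3, 59.4 and 52.2 FPKM in IR (log2 fold change 0.07, adjusted p = 0.779).

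Leaving out the choroid plexus-rich hippocampus libraries (Con 2 and IR 1), an alternative chosen after the data were seen, left log2 fold changes of -0.13 for *Slc1a3*, -0.19 for *Gja1*, -0.13 for *Aldh1l1* and -0.22 for *S100b*. Again 6 of 6 identity genes were below 0 (median -0.16), and with 2 libraries per group no member was called. The values of the genes with no overlap in the hippocampus stayed on the same side of 0 in all 6 fits that left out 1 library, at -0.16 to -0.14 for *Slc1a3*, -0.24 to -0.17 for *Gja1* and -0.20 to -0.12 for *Aldh1l1*.

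Whether the difference between IR and Con itself differed between the tissues was tested over all 12 libraries. No member was called, where 0.083% of 14459 tested genes were. At an unadjusted p under 0.05, which 10.4% of the tested genes met, the genes were *Slc1a3* and *Gja1*. Their log2 fold change in the hippocampus was lower than in the cortex by an estimate of -0.20 for *Slc1a3* (95% interval -0.38 to -0.02) and of -0.26 for *Gja1* (-0.51 to -0.01). In limma the unadjusted p was 0.0330 for *Slc1a3* and 0.0395 for *Gja1*, and the adjusted p was 0.443 and 0.453. For *Serpina3n* the estimate was 0.11 (-0.26 to 0.49, adjusted p = 0.846), which leaves room for a difference in either direction, and it was 0.020 without cortex Con 1 and 0.23 without cortex IR 1. Without the choroid plexus-rich libraries of both tissues the estimate for *Serpina3n* turned slightly negative.

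The reactive genes were then set against the identity genes of the same library, as the log2(FPKM + 1) of the gene minus the mean log2(FPKM + 1) of the 6 identity genes. For *Serpina3n* in the hippocampus this difference was -1.42, -1.50 and -1.17 in Con and -0.83, -0.90 and -0.75 in IR. The means were -1.37 ± 0.17 and -0.83 ± 0.08 (SD, n = 3), and the groups did not overlap. This separation had to follow from values given above and adds no further result. In the hippocampus *Serpina3n* was higher, and the identity mean lower, in every IR library than in every Con library. In the cortex it was -3.56, -3.88 and -3.92 in Con and -3.32, -3.56 and -3.61 in IR, where the groups overlapped. For *Gfap* the hippocampal means were 1.22 ± 0.37 in Con and 1.27 ± 0.20 in IR, with overlap. A permutation test of 3 against 3 libraries cannot give a two-sided p below 0.1, and none was run on this score, which is made of the members themselves.

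**Figure D3:**
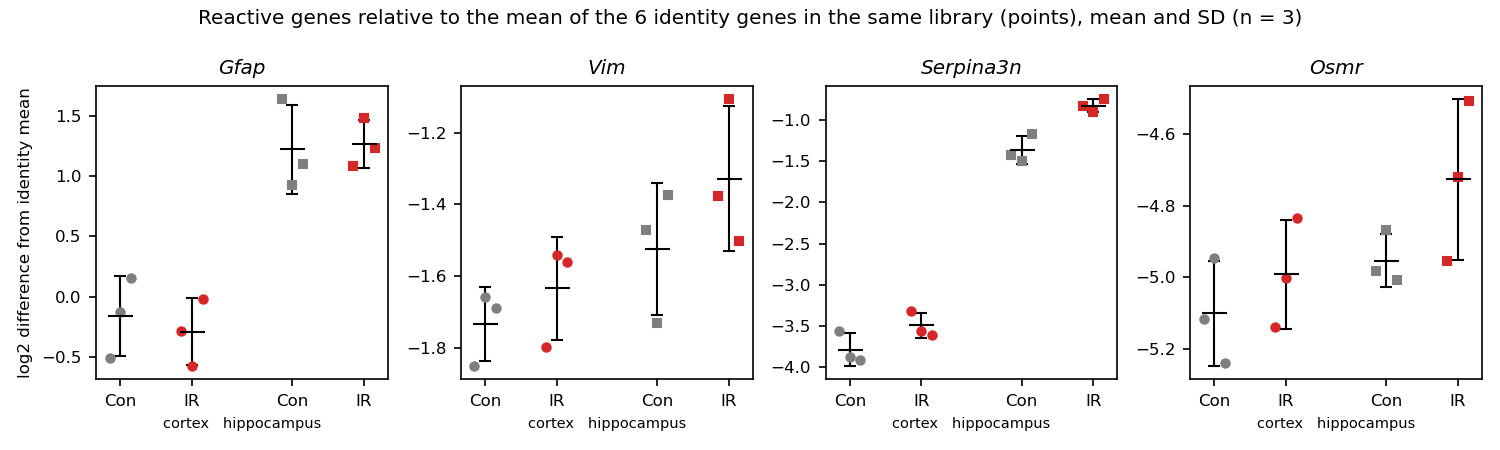
Difference on the log2(FPKM + 1) scale between each reactive gene and the mean of the 6 identity genes of the same library, with Con in grey, IR in red, circles for the cortex, squares for the hippocampus, and the mean and SD of 3 libraries. Only the *Serpina3n* panel shows Con and IR without overlap, in the hippocampus, where both parts of the difference already separated the groups. Each panel has its own axis range.

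The levels were then compared between the tissues. In the Con libraries 8 of 10 genes were called between hippocampus and cortex, where 44.2% of the 14459 tested genes were called, and 7 of 10 were higher in the hippocampus, where 23.6% of the tested genes were. The libraries of the tissues did not overlap for 7 of 10 genes, against 49.7% of the tested genes. At a fold of at least 1.5 with an unadjusted p under 0.05, 4 of 10 genes passed, against 13.8% of the tested genes. *Serpina3n* had the largest difference, with means of 3.40 ± 0.581 FPKM in the cortex and 25.4 ± 3.70 FPKM in the hippocampus (SD, n = 3), a ratio of 7.49 and a log2 fold change of 2.59 ± 0.12 (SE, adjusted p = 3.35e-09). *Gfap* followed with a ratio of 2.95 and a log2 fold change of 1.55 ± 0.24 (SE, adjusted p = 0.000361). The other 5 genes higher in the hippocampus were *Aqp4* (log2 fold change 0.67), *Gja1* (0.63), *Vim* (0.38), *Osmr* (0.32) and *Slc1a3* (0.31). The calls of *Vim* and *Osmr* were lost when any of several single Con libraries was left out, with adjusted p values up to 0.0952 for *Vim* without cortex Con 1 and 0.0873 for *Osmr* without the same library.

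*Aldh1l1* went the other way, with 22.0 ± 0.310 FPKM in the cortex and 14.7 ± 0.897 FPKM in the hippocampus (SD, n = 3, log2 fold change -0.55, adjusted p = 3.79e-06). *Slc1a2* (0.04, 95% interval -0.09 to 0.17) and *S100b* (-0.08, -0.27 to 0.10) were not called. The ratio of hippocampus to cortex was higher in the IR than in the Con libraries for *Serpina3n* (7.70 against 7.49), *Gfap* (3.05 against 2.95) and *Aqp4* (1.74 against 1.60). It was lower for *Gja1* (1.29 against 1.55), *Slc1a3* (1.07 against 1.23), *Aldh1l1* (0.599 against 0.670), *S100b* (0.809 against 0.941), *Osmr* (1.51 against 1.57), *Vim* (1.29 against 1.32) and *Slc1a2* (0.996 against 1.03). These ratios are descriptions, and the test of the difference is the one over all 12 libraries given above. The value columns carry different suffixes for the tissues, so these contrasts and a separate processing of each tissue cannot be told apart.

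The members varied among themselves in how tightly their libraries agreed. Within groups the coefficient of variation was 13.2% to 30.5% for *Gfap* and 4.17% to 31.7% for *Aqp4*, but 2.51% to 7.13% for *Slc1a2* and 1.41% to 6.09% for *Aldh1l1*. In the cortex, Con 3 was the highest of the 6 libraries for 5 of the 10 genes (*Gfap*, *Aqp4*, *Slc1a2*, *Slc1a3* and *Gja1*), and Con 2 was the lowest for 5. In the hippocampus Con 1 was the highest for 4 genes, while Con 2 and IR 1 were each the lowest for 4. With the tissue means removed, *Slc1a3* moved over the 12 libraries with *Gja1* (Pearson r = 0.85), *Slc1a2* (0.75) and *Aldh1l1* (0.72), whereas *Gfap* and *Serpina3n* had r = -0.22. With the means of the 4 groups removed instead, r for *Slc1a3* was 0.72 with *Gja1*, 0.83 with *Slc1a2* and 0.40 with *Aldh1l1*. These libraries share their tissue and group, and the values are a description.

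Among all 14459 genes tested, the 5 whose pattern over the 12 libraries was most like that of *Gfap* after removal of the tissue means were *Mybpc1* (r = 0.90), *Ankrd60*, *Nhs*, *Dnajb14* and *Ppp1r26* (r = 0.84 to 0.85 for the last 4). For *Serpina3n* they were *Inpp5e* (r = 0.95), *Rasd2*, *Luzp1*, *Ints10* and *A230070E04Rik* (0.92 to 0.94). For *Slc1a3* they were *Gria2* (r = 0.95), *Uhrf1bp1l*, *Acsl6*, *Dcbld1* and *Herc3* (0.92 to 0.94), and *Gja1* ranked 50. The member that ranked next for *Slc1a3* was *Slc1a2* at 265, and *Vim* was the first member for *Gfap* and for *Serpina3n*, at ranks 892 and 5107.

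The other genes of astrocytes gave a mixed picture. Of 20 further identity genes, 13 had a log2 fold change above 0 in each tissue and 7 below it, with a median of 0.03 in both. At an unadjusted p under 0.05 in limma, 5 of the 20 were higher and 0 lower in the IR cortex, where 14.1% of all tested genes passed. In the hippocampus 1 was higher and 1 lower, where 13.9% passed. The 5 in the cortex were *Glul*, *Fgfr3* (log2 fold change 0.20, adjusted p = 0.193), *Aldoc* (0.13, adjusted p = 0.315), *Gjb6* and *Htra1*. *Htra1*, a secreted serine protease, rose in the IR cortex, from 58.6, 59.7 and 57.9 FPKM to 75.9, 71.4 and 69.1 FPKM (log2 fold change 0.29, adjusted p = 0.0423). The call was lost in 5 of the 6 fits without 1 library (adjusted p up to 0.204, without IR 1) and held without Con 2 (0.0460). It was also lost without a filter (0.0945), without trend and robust prior (0.112) and with all 12 libraries in a single fit (0.126). In the hippocampus its value was 0.01. *Gjb6*, which encodes connexin 30, the second gap junction protein of astrocytes, was 21.7, 21.0 and 22.0 FPKM in the Con cortex and 25.1, 26.5 and 26.8 FPKM in the IR cortex. In the hippocampus *Gjb6* was 17.5, 15.1 and 16.9 FPKM in Con and 18.4, 20.9 and 20.1 FPKM in IR. It did not overlap between the groups in either tissue, at log2 fold changes of 0.26 (adjusted p = 0.0719) and 0.25 (adjusted p = 0.286), and thus lay on the other side of 0 from its partner *Gja1* in the hippocampus. *Mlc1*, a membrane protein of astrocyte endfeet, was 74.2, 69.1 and 67.9 FPKM in the Con hippocampus and 57.7, 61.9 and 60.6 FPKM in the IR hippocampus (log2 fold change -0.23, adjusted p = 0.262). *Glul*, the glutamine synthetase gene, had log2 fold changes of 0.20 in the cortex (adjusted p = 0.159) and -0.13 in the hippocampus.

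Lists of genes that reactive astrocytes raise in general, after inflammation or after ischaemia held no called gene in either tissue. Of 9 further genes of general reactivity 4 (*Lcn2*, *Steap4*, *Timp1* and *Cxcl10*) were under the limit for testing, and of the 5 others 3 were above 0 in the cortex (median 0.03) and 5 in the hippocampus (median 0.18). *Hspb1*, a small heat shock protein gene, was 3.32, 6.55 and 6.93 FPKM in the Con hippocampus and 14.7, 8.94 and 8.46 FPKM in the IR hippocampus. All IR libraries were above Con, and the highest, IR 1, was the library with the most choroid plexus RNA (log2 fold change 0.84, adjusted p = 0.295). The cortical value of *Hspb1* was 0.47 (adjusted p = 0.290). Of the genes of inflammatory reactivity 5 of 10 tested were above 0 in the cortex and 5 of 11 in the hippocampus, with medians of -0.002 and -0.01, and the only one with an unadjusted p under 0.05 was *Psmb8*, an immunoproteasome subunit gene, in the cortex (-0.29, adjusted p = 0.221). Those of ischaemic reactivity had medians of 0.07 in the cortex (6 tested) and -0.12 in the hippocampus (7 tested). *Ptgs2*, the inducible cyclooxygenase gene, was 2.40, 2.81 and 2.76 FPKM in the Con cortex and 3.78, 3.62 and 4.48 FPKM in the IR cortex (log2 fold change 0.44, adjusted p = 0.0856), and had -0.13 in the hippocampus. *S100a10*, which encodes a partner of annexin A2, had 32.6, 33.3 and 30.5 FPKM in the Con cortex and 39.0, 37.1 and 35.1 FPKM in the IR cortex (log2 fold change 0.20, adjusted p = 0.187, no overlap). In the hippocampus it had 23.3, 17.2 and 17.6 FPKM in Con and 14.1, 14.9 and 17.7 FPKM in IR, with overlap (-0.29, adjusted p = 0.357). *Cd14*, the co-receptor for lipopolysaccharide, had 0.918, 1.37 and 0.954 FPKM in the Con hippocampus and 0.628, 0.437 and 0.546 FPKM in the IR hippocampus, with no overlap (-0.43, adjusted p = 0.259), and -0.21 in the cortex.

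The pathway that *Osmr* belongs to was followed from ligand to transcription factor. Of 6 ligands of the gp130 family only *Cntf* passed the limit, at 1.19, 0.753 and 0.964 FPKM in the Con hippocampus and 1.06, 0.806 and 1.02 FPKM in the IR hippocampus, while *Osm*, *Lif*, *Il6*, *Il11* and *Clcf1* were not tested. Of 5 further receptor genes 2 were above 0 in the cortex and 5 in the hippocampus (medians -0.01 and 0.09). *Lifr*, the receptor subunit for leukaemia inhibitory factor, was 5.95, 6.32 and 6.72 FPKM in the Con hippocampus and 7.54, 7.37 and 7.19 FPKM in the IR hippocampus (log2 fold change 0.19, adjusted p = 0.326). In the cortex *Lifr* was 5.24, 5.16 and 5.89 FPKM in Con and 5.34, 4.70 and 5.16 FPKM in IR, with overlap (log2 fold change -0.08, adjusted p = 0.691). Of 7 genes of Janus kinases, STATs and their inhibitors, 6 were above 0 in the cortex (median 0.12) and 5 in the hippocampus (median 0.15). None was called.

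*Stat3*, the transcription factor through which this family acts on *Gfap*, was 9.42, 9.68 and 10.9 FPKM in the Con hippocampus and 12.3, 12.3 and 12.4 FPKM in the IR hippocampus. The groups did not overlap, at a log2 fold change of 0.28 ± 0.07 (SE), with an unadjusted p of 0.00489 in limma and an adjusted p of 0.247. In the cortex *Stat3* was 9.85, 9.71 and 9.90 FPKM in Con and 10.7, 10.5 and 11.3 FPKM in IR (log2 fold change 0.13, adjusted p = 0.359). *Jak2* was 8.50, 8.17 and 8.91 FPKM in the Con cortex and 10.7, 10.5 and 9.95 FPKM in the IR cortex (log2 fold change 0.26, adjusted p = 0.118), and had -0.04 in the hippocampus.

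Close relatives and partners of the members were examined too. Among 6 paralogs of *Serpina3n*, *Serpina3k* and *Serpina3m* were listed at 0 in every library, and *Serpina3g* alone passed the filter, in the hippocampus and over all 12 libraries. It had 0.730, 0.653 and 1.24 FPKM in Con and 1.51, 1.89 and 1.34 FPKM in IR there, without overlap (log2 fold change 0.47, adjusted p = 0.278). In the cortex *Serpina3g* had 0.153, 0.0609 and 0.0914 FPKM in Con and was listed at 0 in the 3 IR libraries. Its interaction estimate was 0.61 (adjusted p = 0.257), and it was called higher in the hippocampus than in the cortex of Con (0.75, adjusted p = 0.000193). The paralogs are similar in sequence, and how reads that fit more than 1 of them were counted is not stated in the sources used here, so the split between them is uncertain. Of 3 other filament and linker genes (*Nes*, *Synm* and *Plec*), 2 were above 0 in the cortex, 0 were above it in the hippocampus, and none had an unadjusted p under 0.05 in either tissue. Of 6 other genes of glutamate handling, 2 were above 0 in the cortex (median -0.01) and 4 in the hippocampus (median 0.11). The only one with an unadjusted p under 0.05 in either tissue was *Slc7a11*, in the hippocampus. *Slc7a11*, the cystine-glutamate exchanger gene, was 3.07, 2.73 and 4.24 FPKM in the Con hippocampus and 4.20, 5.10 and 3.99 FPKM in the IR hippocampus, with overlap (log2 fold change 0.33, adjusted p = 0.352). Its cortical value lay on the other side of 0, at -0.07 (adjusted p = 0.743). Of 7 genes for the anchoring of aquaporin-4 and for other junction proteins, *Gjb6* alone had an unadjusted p under 0.05, in both tissues, a share close to the 14.1% (cortex) and 13.9% (hippocampus) of all tested genes.

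**Figure D4:**
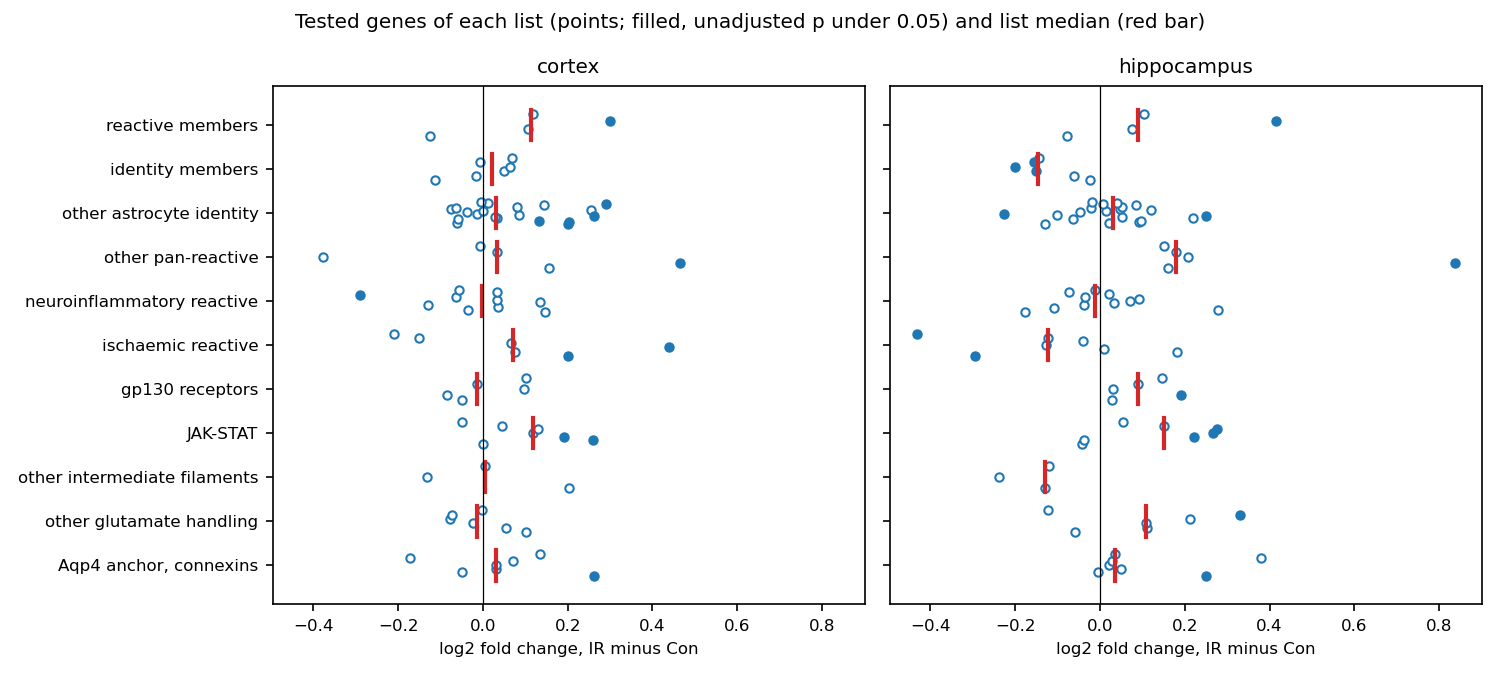
Log2 fold change of IR over Con on the log2(FPKM + 1) scale for every tested gene of each list (points, filled at an unadjusted p under 0.05) with the list median as a red bar, in the cortex and the hippocampus. In the hippocampus the 6 identity members lie below 0, while of the 20 further identity genes 13 lie above 0 and 7 below. In the cortex the 5 filled points of the further identity genes all lie above 0.

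Markers of other cell types were summed in the same libraries, and their part in the values above was not tested. Of these markers *Trem2* alone was called, in the cortex. The summed level of 8 microglial markers was 125 to 133 FPKM in the Con cortex and 97.9 to 125 FPKM in the IR cortex, and 118 to 143 FPKM and 93.8 to 108 FPKM in the hippocampus. All 8 had a log2 fold change below 0 in both tissues, and *Trem2*, a microglial surface receptor, fell in the cortex, from 8.18, 9.06 and 8.93 FPKM to 6.41, 6.45 and 6.48 FPKM (log2 fold change -0.38, adjusted p = 0.0396). This call was lost in each of the 6 fits without 1 cortex library, at adjusted p values of 0.0503 to 0.164, and also without a filter (0.0891), without trend and robust prior (0.0683) and with all 12 libraries in a single fit (0.248). The 6 endothelial markers summed to 72.3 to 87.1 FPKM in the Con cortex and 90.6 to 103 FPKM in the IR cortex, and to 65.2 to 72.0 FPKM and 80.6 to 82.5 FPKM in the hippocampus, with 5 of 6 above 0 in each tissue. The 6 oligodendrocyte markers, which bear on *S100b*, summed to 1050 to 1302 FPKM in the Con cortex and 1306 to 1583 FPKM in the IR cortex (6 of 6 above 0). In the hippocampus they summed to 1072 to 1308 FPKM in Con and 1001 to 1265 FPKM in IR (2 of 6 above 0). The 6 fibroblast markers summed to 28.1 to 44.2 FPKM in the Con hippocampus and 35.9 to 59.5 FPKM in the IR hippocampus (6 of 6 above 0), and to 29.2 to 43.9 FPKM and 23.4 to 38.4 FPKM in the cortex (0 of 6). The 6 neuronal markers summed to 2317 to 2540 FPKM in the Con hippocampus and 2329 to 2427 FPKM in the IR hippocampus, and to 2528 to 2873 FPKM and 2601 to 2809 FPKM in the cortex. The 5 pericyte markers summed to 54.8 to 65.2 FPKM in the Con hippocampus and 62.5 to 66.3 FPKM in the IR hippocampus, and to 67.6 to 76.3 FPKM and 63.5 to 74.8 FPKM in the cortex. The 4 markers of oligodendrocyte precursors summed to 71.8 to 72.5 FPKM in the Con hippocampus and 65.7 to 70.4 FPKM in the IR hippocampus, and the other way to 58.4 to 63.4 FPKM and 63.2 to 69.2 FPKM in the cortex, with 2 of 4 above 0 in each tissue. The 6 ependymal markers summed to 21.6 to 37.3 FPKM in the Con hippocampus and 19.1 to 34.2 FPKM in the IR hippocampus, and to 6.39 to 15.7 FPKM and 6.95 to 11.8 FPKM in the cortex. Of the 5 genes of neural stem cells and neuroblasts, *Hopx*, a gene of radial glia-like stem cells that astrocytes express too, made up most of the summed level, at means of 71.0 FPKM in the Con hippocampus and 59.2 FPKM in the IR hippocampus (log2 fold change -0.26, adjusted p = 0.295). Of the other 2 of these genes that were tested, *Dcx*, a neuroblast gene, had a hippocampal log2 fold change of -0.16 and a cortical one of -0.30 (adjusted p = 0.202, all 3 IR libraries lower), and *Sox11* had 0.12 and -0.02. *Hopx* had -0.18 in the cortex. *Igfbpl1* and *Eomes* were too low to be tested, with means of 0.567 and 0.155 FPKM in the Con hippocampus and 0.190 and 0.0301 FPKM in the IR hippocampus, where *Eomes* did not overlap. None of the markers of other cell types was at 0 in all libraries of a group.

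**Figure D5:**
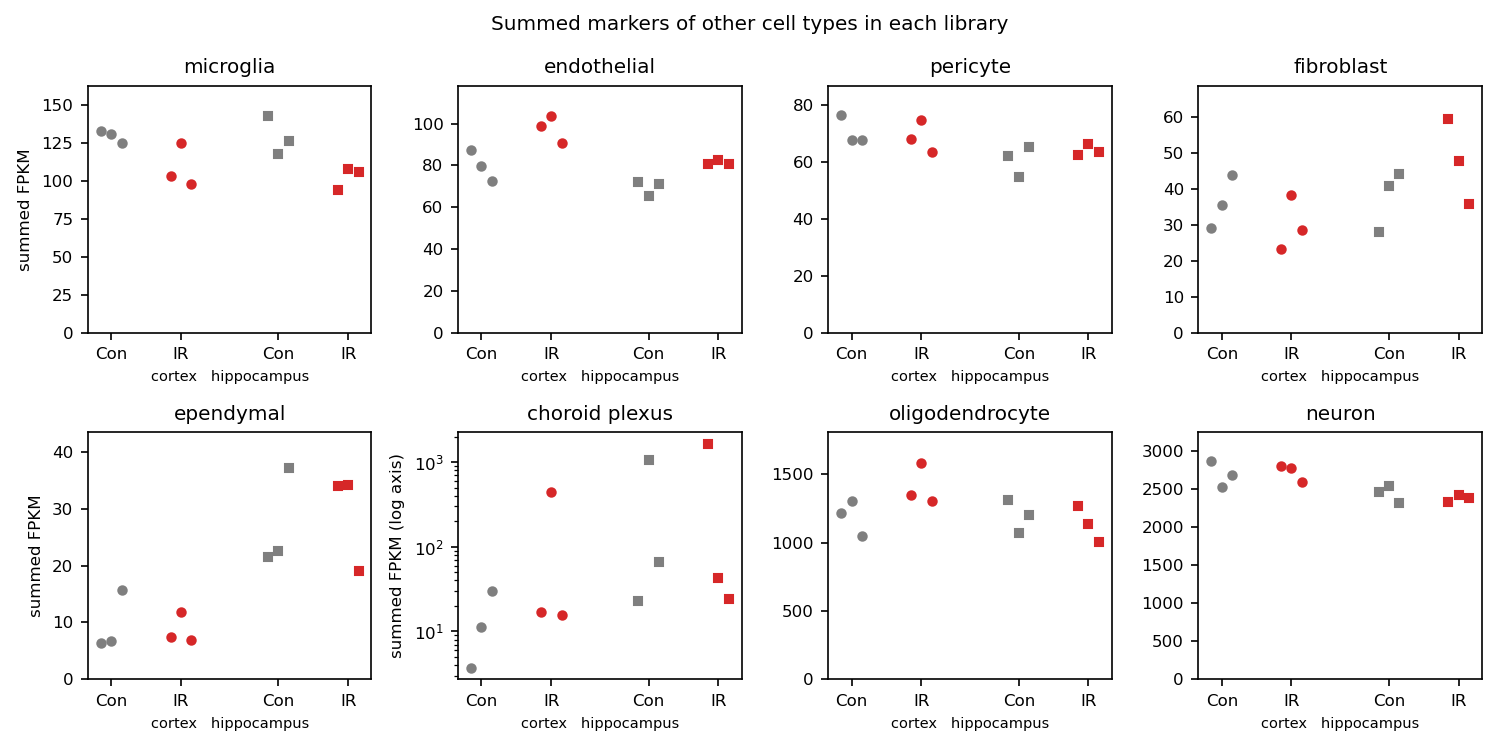
Summed FPKM of the markers of 8 other cell types in each library, with Con in grey, IR in red, circles for the cortex and squares for the hippocampus. The choroid plexus panel has a log axis and shows the 3 libraries between 440 and 1651 FPKM, and the endothelial sums of Con and IR do not overlap in either tissue.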

How the data were processed

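RNA from cortex and hippocampus of Con and IR mice was re-analysed from 3 libraries per tissue and group. The deposited values are FPKM, which the authors made from reads aligned with TopHat (mm10, per the submitters' processing notes) and passed through Cufflinks, and normalized in edgeR by a geometric method. Trimming used FASTX_Trimmer and BBMap. The annotation is not given in the sources used here. The labels name Trizol and total RNA, the methods a lipid tissue kit and poly(A) selection, and which applies was not settled. No counts were used here, so no interval covers counting error.

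Groups came from the labels. FPKM were transformed to log2(FPKM + 1), so that differences of low genes such as *Osmr* are understated. Genes that reached 0.5 FPKM in 3 or more of the 6 libraries of a tissue (in either tissue for fits of all 12) were tested with limma 3.58.1 in R 4.3.3 (trend, robust prior), with Benjamini-Hochberg adjustment over all tested genes. The fit was also run on simulated data, in which some genes were changed in the cortex alone, by more than any difference of the members between IR and Con. That run does not show whether differences as small as theirs could be found. The 10 genes and the gene lists were chosen with earlier results of these data known. The text names the 10 genes, and of each list the genes with an adjusted p under 0.05 and some of the up to 3 genes with the smallest p per tissue, and for likeness the 5 genes with the highest Pearson r. Gene positions are from GENCODE on GRCm38. Figures used matplotlib 3.10.9 in Python 3.11.15. Alternatives were a pseudocount of 0.1, no filter, at least 1 FPKM in every library, rescaling by median ratios, quantile normalization, limma without trend and robust prior, a replicate block, all 12 libraries in 1 fit, an unadjusted p, a fold of 1.5, and leaving out libraries.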

Additional observations from a re-analysis of the deposited data

How the results depend on the processing

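With 3 libraries per group, of unknown absolute depth, and values only as FPKM, small differences of these 10 genes could not be detected, and missing the threshold does not show that levels were alike. None of the 10 genes was called between IR and Con at an adjusted p, with any filter, pseudocount, scaling or set of libraries tried, except *Serpina3n* in the hippocampus without Con 3. Leaving out 1 library gave 0 to 1 called genes of the 10 in the hippocampus (2 to 861 of all genes), 0 in the cortex (17 to 77 of all genes), 0 for the interaction (0 to 487) and 6 to 8 between the tissues (5348 to 6780). With an unadjusted p the counts were 1 in the cortex, 4 in the hippocampus and 2 for the interaction, and with a fold of 1.5 and an unadjusted p the count between the tissues was 4 instead of 8, where 13.8% of the tested genes passed. At a filter of 1 FPKM in every library *Osmr* was not tested in the cortex or over all 12 libraries.

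Over all genes the number called in the cortex was 102, but 24 without a filter and 22 without trend and robust prior. In the hippocampus it was 4, but 74 with all 12 libraries in a single fit, 2 with the stricter filter and 1 without the choroid plexus-rich libraries. For the interaction it was 12, but 7 without a filter, 19 with the stricter filter, and 0 without trend and robust prior or without the choroid plexus-rich libraries. The cause was not tested.

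Whether library numbers pair the samples was not settled. The deviations of same-numbered Con and IR libraries from their group means correlated at r = 0.11, -0.10 and -0.04 in the cortex. In the hippocampus they correlated at -0.39, -0.15 and -0.08, and those of same-numbered cortex and hippocampus libraries at -0.08 to 0.17. Libraries of different numbers were not compared, so these values cannot show whether cortex and hippocampus libraries came from the same mice. With the number as a replicate block, 0 of the 10 genes were called in the cortex (71 of all genes), 0 in the hippocampus (1), 0 for the interaction (0) and 8 between the tissues (6117). *Htra1* and *Trem2* lost their calls in the cortex under the block (adjusted p = 0.0952 and 0.0857).

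Signs turned for values near 0, and the cause was not tested. After quantile normalization *Aqp4* (0.0058) and *Slc1a2* (0.026) were above 0 in the hippocampus, as was the interaction of *Vim* (0.0033) and of *Slc1a2* (0.032). Without the choroid plexus-rich libraries, an alternative added after the data were seen, *Vim* was -0.032 in the hippocampus, the interaction was -0.19 for *Gfap*, -0.022 for *Serpina3n*, 0.10 for *Osmr* and -0.10 for *Aqp4*, and *Osmr* was no longer called between the tissues (0.29, adjusted p = 0.0684). Leaving out 1 library turned the sign of some values and moved others by over 1.5 times. In the cortex the log2 fold changes ranged from -0.025 to 0.012 for *Aldh1l1*, -0.28 to 0.12 for *Aqp4*, -0.32 to 0.10 for *Gfap*, -0.013 to 0.16 for *S100b*, -0.068 to 0.035 for *Slc1a2* and -0.016 to 0.096 for *Slc1a3*. In the hippocampus they ranged from -0.12 to 0.13 for *Aqp4*, -0.24 to 0.14 for *Gfap*, -0.0034 to 0.21 for *Osmr* and -0.047 to 0.16 for *Vim*. The interaction ranged from -0.14 to 0.26 for *Aqp4*, -0.18 to 0.26 for *Gfap*, -0.12 to 0.092 for *Osmr*, -0.095 to 0.0075 for *Slc1a2* and -0.15 to 0.056 for *Vim*, and the difference between the tissues in Con from -0.013 to 0.090 for *Slc1a2*. With no change of sign, the values ranged in the cortex from 0.030 to 0.20 for *Vim*, 0.18 to 0.39 for *Serpina3n*, 0.059 to 0.16 for *Osmr* and 0.0013 to 0.17 for *Gja1*, in the hippocampus from -0.080 to -0.032 for *Slc1a2*, for the interaction from 0.020 to 0.23 for *Serpina3n* and -0.30 to -0.13 for *S100b*, and between the tissues from -0.12 to -0.020 for *S100b*.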
